A study of Rattus norvegicus with 12 samples.

Results

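Fatty acid oxidation in the rat corpus luteum (CL) was followed through 8 genes: the acyl-CoA thioesterases Acot1 and Acot2, the carnitine palmitoyltransferases Cpt1a and Cpt2, the oxidation enzymes Acadm, Hadha and Ehhadh, and the kinase Pdk4. They were chosen by gene symbol, with the probe set of the highest mean over all 12 arrays taken where a gene had several, and 8 of 8 were measured among the 14506 genes that the platform annotation names with 1 symbol. The list was drawn up with earlier results of these arrays known, and the changes of Acot1 with AI and with E2 were among those results, so the values of Acot1 are given as a description without a test. All rats were pregnant Wistar animals, and each array carried total RNA from the flash-frozen CL of 1 animal, with 3 animals in each of 4 groups. D12 rats were untreated and sampled on day 12 of pregnancy. From day 12, VEH rats received the vehicle, AI rats received anastrozole, an inhibitor of the aromatase that makes 17β-estradiol (E2), orally at 1 mg/kg daily for 4 days, and AI+E2 rats received AI together with E2 at 10 µg/day s.c., and these 3 groups were sampled on day 16. VEH against D12 therefore compares day and vehicle at once, and AI lowers estrogen synthesis wherever aromatase is present and not in the CL alone. The authors reported that AI also raised testosterone and lowered CL weight, and that progesterone did not rise with it. The ages of the rats are not given in the sources used here.

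Fatty acids are activated to acyl-CoA, handed to carnitine by CPT1 at the outer mitochondrial membrane, returned to CoA by CPT2 at the inner membrane, and shortened by repeated rounds of dehydrogenation, hydration, dehydrogenation and thiolysis. Peroxisomes carry out a parallel pathway on very long and branched chains, and acyl-CoA thioesterases split acyl-CoA back into fatty acid and CoA. PPARα, a nuclear receptor that binds DNA with RXR and is activated by fatty acids, raises many of these genes in fasted liver, Acot1, Cpt1a, Ehhadh and Pdk4 among them, and the steroid-making cells of the CL are rich in the lipid that these enzymes draw on.

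Acot1 and Acot2 are next to each other on chromosome 6 in the RefSeq annotation of GRCr8, with no gene between them, and they had the largest ranges over the 12 arrays of the 8 genes. Their upstream sequences, and that of Pdk4, the gene with the next largest range, are shown because these 3 had the largest differences between AI+E2 and AI among the 8. Each is the 250 bases before the RefSeq start of the gene, read 5′ to 3′ on the strand of the gene, with CCAAT on that strand and ATTGG, its reverse complement, in capitals. Acot1 lies on the plus strand (chr6:109367024-109367273), as does Acot2 (chr6:109342590-109342839), and Pdk4 lies on the minus strand (chr4:34568330-34568579).
Acot1: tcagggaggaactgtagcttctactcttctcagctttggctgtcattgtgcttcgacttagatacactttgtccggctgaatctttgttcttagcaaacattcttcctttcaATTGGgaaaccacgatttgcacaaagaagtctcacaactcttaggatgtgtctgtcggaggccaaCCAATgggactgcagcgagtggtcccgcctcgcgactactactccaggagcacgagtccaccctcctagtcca
Acot2: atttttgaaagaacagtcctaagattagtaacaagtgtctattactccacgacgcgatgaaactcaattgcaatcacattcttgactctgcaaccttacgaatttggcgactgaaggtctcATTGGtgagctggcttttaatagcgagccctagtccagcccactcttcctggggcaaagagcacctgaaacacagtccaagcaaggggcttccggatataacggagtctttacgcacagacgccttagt
Pdk4: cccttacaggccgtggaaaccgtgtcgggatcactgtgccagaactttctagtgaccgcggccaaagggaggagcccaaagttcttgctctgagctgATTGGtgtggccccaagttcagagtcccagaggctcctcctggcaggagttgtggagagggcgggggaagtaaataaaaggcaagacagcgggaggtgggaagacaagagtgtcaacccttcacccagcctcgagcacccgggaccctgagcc

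CCAAT or its reverse complement stood in these 250 bases for 4 of the 8 genes (Acot1, Acot2, Pdk4 and Ehhadh), against 34% of the 33465 RefSeq promoters searched, and this motif was searched after the sequences were seen. The neighbours Acot1 and Acot2 shared no run of bases longer than 9 on the same strand. The window of 250 bases before to 50 after the start was searched on both strands for the element of PPAR with RXR (AGGTCA repeated with 1 base between) and for the estrogen response element (AGGTCA and its inverse with 3 bases between). No window of the 8 genes held either element with up to 2 mismatches. Such a match stood in 3.77% of all promoters for the PPAR element and in 1.62% for the estrogen response element. With shares this low, the lack of a match in 8 windows says little about these genes, and sequence outside the windows was not searched. The AGGTCA half-site alone was in 0 of the 8 upstream sequences and in 14.1% of all.

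The arrays gave log2 RMA values, intensities that the authors had background-corrected, quantile-normalized and summarised per probe set, with array medians from 6.51 to 6.56. Differences are on the log2 scale with the standard error (SE) of the limma fit over all 12 arrays, and a gene was called where its Benjamini-Hochberg adjusted p over all 14506 genes was under 0.05. The luteal markers Star and Cyp11a1, which start steroid synthesis, were between 12.6 and 13.0 on every array. Hsd3b2 of the same marker list was lower, between 7.20 and 7.94. Adipoq of white fat stayed between 5.60 and 5.75 and Ucp1 of brown fat between 5.43 and 5.61, below the median of 6.87 over all genes. Not all white fat markers were low: Lipe (8.71 to 9.18) and Retn (6.94 to 7.34) lay above that median on every array. Of 10 white fat markers none was called between AI and VEH and 1 fell from AI to AI+E2. Whole CL was extracted, so fewer cells of a type and less RNA per cell cannot be told apart.

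The thioesterases showed the widest differences. Acot1, the cytosolic enzyme, measured 6.79, 6.65 and 7.25 in D12, 7.70, 7.70 and 7.99 in VEH, 6.36, 6.23 and 6.15 in AI and 8.66, 8.60 and 8.62 in AI+E2. The 4 groups did not overlap, with every AI array lowest and every AI+E2 array highest. The mean of Acot1 was 2.93-fold lower in AI than in VEH (log2 difference -1.55 ± 0.12, SE, n = 3 and 3) and with E2 added to AI it was 5.21-fold higher than with AI alone (2.38 ± 0.12). AI+E2 exceeded VEH 1.78-fold, and VEH exceeded D12 1.86-fold.

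Acot2, the mitochondrial counterpart, measured 8.91, 8.78 and 8.96 in D12, 9.30, 9.37 and 9.38 in VEH, 8.50, 8.75 and 8.49 in AI and 9.92, 9.88 and 9.90 in AI+E2. Its groups lay in the same order as those of Acot1 and did not overlap either. The changes of Acot1 were known beforehand, and probes of these close relatives may bind both transcripts. The tests of Acot2 that follow are therefore not independent of those known changes. Acot2 fell 1.70-fold from VEH to AI (log2 difference -0.77 ± 0.0723, adjusted p = 1.98e-06) and rose 2.49-fold from AI to AI+E2 (1.32 ± 0.0723, adjusted p = 1.42e-08). AI+E2 exceeded VEH by 0.55 (adjusted p = 9.69e-05) and VEH exceeded D12 by 0.47 (adjusted p = 0.000606), and the lowest neighbours in the order, AI and D12, differed by 0.30 (adjusted p = 0.0176).

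**Figure D1:**
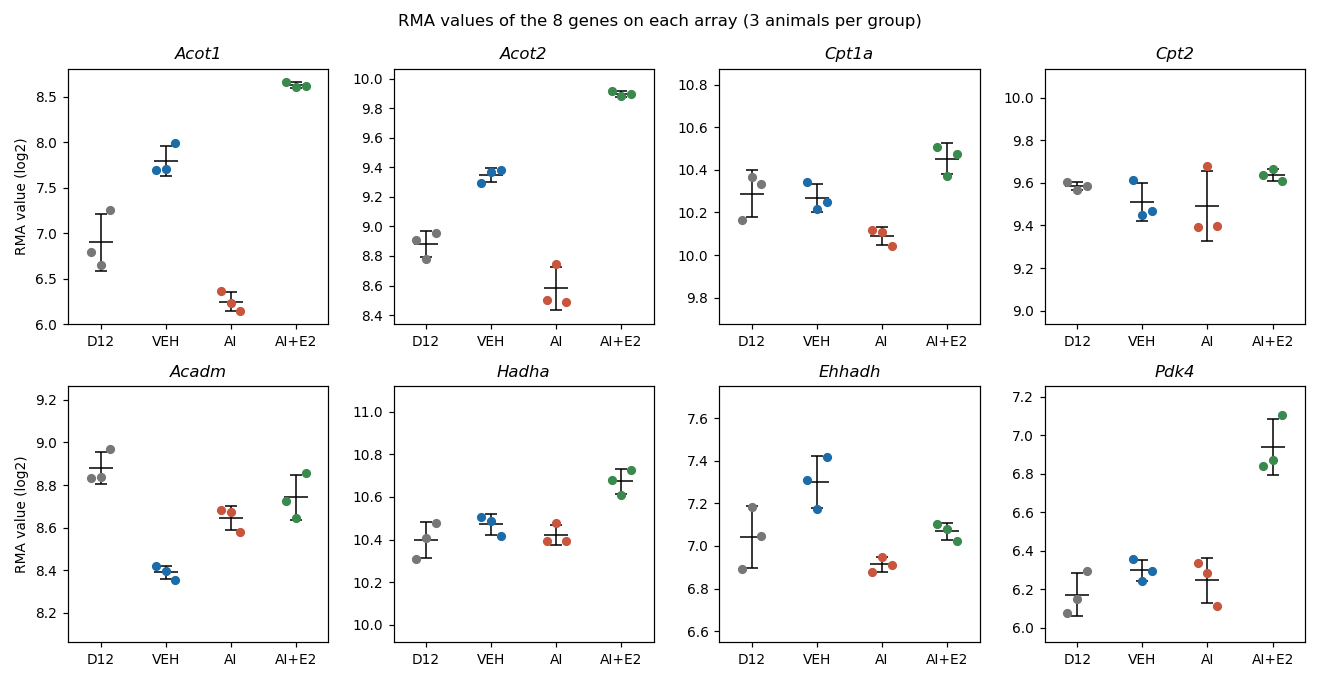
RMA values (log2, y axis, each panel with its own range) of the 8 genes in the 4 groups (x axis), with 1 point per animal, the horizontal bar at the group mean and whiskers of 1 SD (n = 3). The AI points of Acot1 and Acot2 lie below and the AI+E2 points above all others, Pdk4 stands apart in AI+E2 alone, and Acadm is lowest in VEH.

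Of 13 thioesterases listed, 9 were measured. Of the 8 besides Acot1, Acot2 was called in each of the 4 comparisons and the other 7 in none, and these 7 lay between -0.20 and 0.20 in AI+E2 against AI. Of all genes 5.91% were called higher and 11.0% lower in AI against VEH, and 8.65% and 4.13% in AI+E2 against AI. The shares were 6.11% and 6.90% in AI+E2 against VEH and 6.91% and 3.23% in VEH against D12. With shares this low, the lack of a call in 7 genes says little about thioesterases. Acot1 and Acot2 are close relatives, and probes of one can bind the transcript of the other to a degree that the summarised values do not show. Over the 12 arrays their RMA values had a Pearson r of 0.983, and with the group means taken out the r of their deviations was 0.424, so most of the likeness was between groups. The genes with the highest r with Acot1 were Hacd4 (0.988), which encodes a dehydratase of fatty acid elongation, Phex (0.985), an endopeptidase gene, and Acot2 (0.983). Hacd4 fell by 0.77 from VEH to AI and rose by 1.19 from AI to AI+E2. Because Hacd4 was picked by its r with Acot1 over these same arrays, these changes follow from the choice.

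The carnitine shuttle members changed less. Cpt1a, whose enzyme sets the entry of fatty acids into mitochondria, measured 10.16, 10.36 and 10.34 in D12, 10.34, 10.21 and 10.25 in VEH, 10.12, 10.11 and 10.04 in AI and 10.51, 10.37 and 10.48 in AI+E2. Every AI array was below every other array. Cpt1a rose 1.29-fold from AI to AI+E2 (0.36 ± 0.0664, adjusted p = 0.00158), while the difference of -0.18 between AI and VEH had an adjusted p of 0.0825. AI+E2 against VEH gave 0.18 (adjusted p = 0.091), and after another quantile normalization 0.21 (adjusted p = 0.0207).

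Cpt2, at the inner membrane, measured 9.60, 9.57 and 9.58 in D12, 9.61, 9.45 and 9.47 in VEH, 9.39, 9.68 and 9.40 in AI and 9.64, 9.67 and 9.61 in AI+E2. The second AI array lay above the other AI arrays, and the AI group overlapped the other 3 groups. No comparison of Cpt2 passed the test, with a 95% interval of -0.18 to 0.14 for AI against VEH and of -0.01 to 0.31 for AI+E2 against AI. Without AI replicate 2, Cpt2 was called in AI+E2 against AI (0.24, adjusted p = 0.0243).

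The mitochondrial oxidation members moved apart from each other. Acadm, the medium-chain acyl-CoA dehydrogenase of the opening step, measured 8.83, 8.84 and 8.97 in D12, 8.42, 8.39 and 8.36 in VEH, 8.68, 8.67 and 8.58 in AI and 8.72, 8.64 and 8.86 in AI+E2. VEH was the lowest group, with no array as high as any array of the others. Acadm fell 1.41-fold from D12 to VEH (-0.49 ± 0.0653, adjusted p = 0.000173). It rose 1.19-fold from VEH to AI (0.25 ± 0.0653, adjusted p = 0.0131), and without AI replicate 1 the difference was 0.23 (adjusted p = 0.0608). AI+E2 exceeded VEH by 0.35 (adjusted p = 0.00176) and did not pass the test against AI (0.097, adjusted p = 0.402).

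Hadha, the alpha subunit of the trifunctional protein, which carries out later steps of each round on long chains, measured 10.31, 10.41 and 10.48 in D12, 10.51, 10.49 and 10.42 in VEH, 10.39, 10.48 and 10.39 in AI and 10.68, 10.61 and 10.73 in AI+E2. The AI+E2 arrays were above all others, and the other 3 groups overlapped. Hadha rose 1.19-fold from AI to AI+E2 (0.25 ± 0.0609, adjusted p = 0.0117). This call was lost without AI replicate 1 (0.24, adjusted p = 0.0571), AI+E2 replicate 1 (0.25, adjusted p = 0.0503) or AI+E2 replicate 3 (0.22, adjusted p = 0.0631). A second, dimmer probe set of Hadha gave 0.20 (adjusted p = 0.279 over all probe sets). AI+E2 against VEH gave 0.20 (adjusted p = 0.0409), and leaving out any 1 VEH array, AI+E2 replicate 1 or AI+E2 replicate 3 ended that call (adjusted p from 0.0585 to 0.15).

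Ehhadh, the peroxisomal bifunctional enzyme, measured 6.89, 7.18 and 7.04 in D12, 7.31, 7.17 and 7.42 in VEH, 6.88, 6.95 and 6.91 in AI and 7.10, 7.08 and 7.02 in AI+E2. AI was below VEH and AI+E2 on every array, and AI+E2 was below VEH on every array. Ehhadh fell 1.31-fold from VEH to AI (-0.39 ± 0.0767, adjusted p = 0.00211), and AI+E2 against AI gave 0.16 (adjusted p = 0.233). AI+E2 against VEH gave -0.23 (adjusted p = 0.0634), or -0.29 without VEH replicate 2 (adjusted p = 0.0307). VEH against D12 gave 0.26 (adjusted p = 0.0438) with overlapping groups, and it was not called without D12 replicate 1 (0.19, adjusted p = 0.195), D12 replicate 3, VEH replicate 1 or VEH replicate 3 (0.20, adjusted p = 0.152).

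Pdk4 phosphorylates and so inactivates pyruvate dehydrogenase, which turns a cell from glucose towards fat. It measured 6.07, 6.15 and 6.29 in D12, 6.35, 6.24 and 6.29 in VEH, 6.34, 6.28 and 6.11 in AI and 6.84, 6.87 and 7.10 in AI+E2. D12, VEH and AI overlapped, and every AI+E2 array was above all of them. Pdk4 rose 1.62-fold from AI to AI+E2 (0.69 ± 0.0828, adjusted p = 3.37e-05) and AI+E2 exceeded VEH 1.56-fold (0.64, adjusted p = 8.08e-05). Its difference between AI and VEH was -0.051, with a 95% interval of -0.23 to 0.13. The gene nearest to Pdk4 over the 12 arrays was Nupr1, a stress-response gene (r = 0.987), with a difference of 1.06 between AI+E2 and AI and of -0.077 between AI and VEH. Nupr1 was picked by this r, so its differences follow from the choice. Acot1 and Pdk4, both known PPARα target genes, had an r of 0.804 over the 12 arrays, and the AI arrays of Pdk4 overlapped VEH where those of Acot1 did not. Pdk4 already averaged 6.30 in VEH, near the 6.25 of Acot1 in AI and below the median of 6.87 over all genes. Whether a fall of Pdk4 could be seen from that level was not tested.

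**Figure D2:**
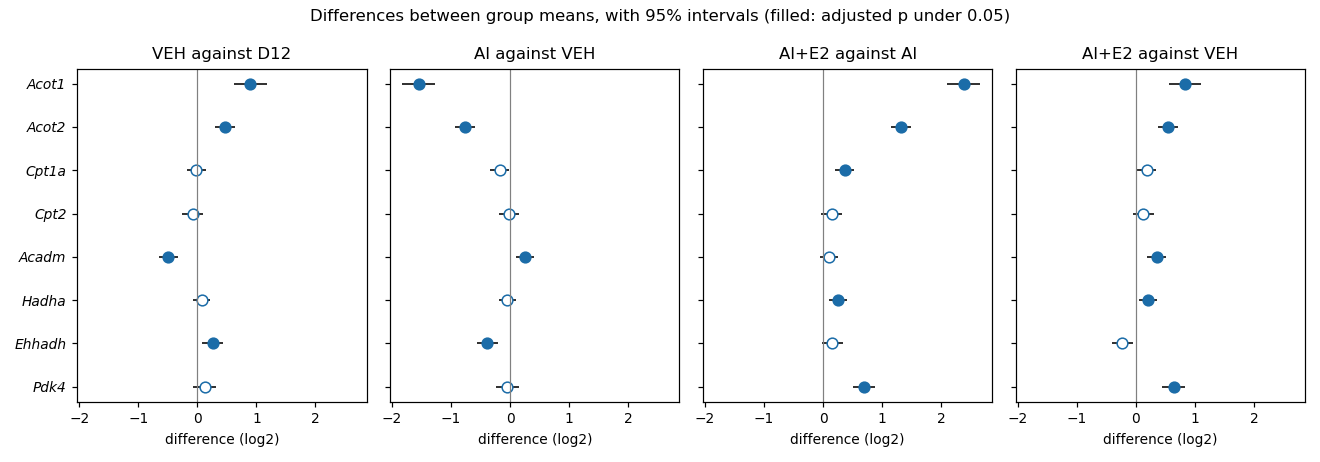
Differences between group means (log2, x axis) of the 8 genes (y axis) in 4 comparisons, with the limma 95% interval as a line and filled circles for an adjusted p under 0.05. Acot2 is called in all 4, Pdk4 in the 2 comparisons of AI+E2 and Cpt2 in none, and the circles of Acot1, filled by the same rule, are a description and not a test.

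By counts, AI against VEH called 1 of the 8 higher (Acadm) and 3 lower (Acot1, Acot2, Ehhadh), where 5.91% of all genes were called higher and 11.0% lower. AI+E2 against AI called 5 higher (Acot1, Acot2, Cpt1a, Pdk4, Hadha) and 0 lower, where 8.65% of all genes were called higher and 4.13% lower. In that comparison 8 of 8 differences, Acot1 included, were positive, where the median over all genes was -0.022. The 95% intervals of Cpt2, Acadm and Ehhadh included 0. AI+E2 against VEH called 5 higher (Acot1, Acot2, Pdk4, Acadm, Hadha) and 0 lower, beside 6.11% and 6.90% of all genes. VEH against D12 called 3 higher (Acot1, Acot2, Ehhadh) and 1 lower (Acadm), beside 6.91% and 3.23%. The comparisons share arrays, AI entering the first and the second. Acot1, which is described without a test, adds 1 to each of these counts. In the same order of comparisons, the 7 genes without it gave 1 higher and 2 lower, 4 higher, 4 higher, and 2 higher and 1 lower. Acot2, whose tests are not independent of Acot1, is among the calls of all 4 comparisons. The methods' t-test, adjusted over the same genes, left 2 calls in AI against VEH (Acot1 and Acot2), 3 in AI+E2 against AI (with Cpt1a), 2 in AI+E2 against VEH and 0 in VEH against D12, Acot1 again included. At its unadjusted threshold it called 5, 6, 7 and 3 of the 8.

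In the wider mitochondrial pathway the calls were mostly lower in AI than in VEH and mostly higher in AI+E2 than in AI, comparisons that share the AI arrays. Of 18 enzymes measured of the 18 listed, 9 fell and 2 rose (Acad10 and Acadm) from VEH to AI, with a list median of -0.28 against 0.013 over all genes. From AI to AI+E2, 10 rose and 1 fell (Acad10), with a list median of 0.30 against -0.022. Between AI+E2 and VEH 4 were higher and 0 lower, with a list median of 0.038. Over all genes 5.91% were called higher and 11.0% lower in AI against VEH, and 8.65% and 4.13% in AI+E2 against AI. In AI+E2 against VEH these shares were 6.11% and 6.90%. Leaving out 1 array at a time gave 8 to 10 enzymes that fell with AI and 9 to 11 that rose with E2. Without AI replicate 1 the 2 that rose with AI were no longer called, and 1 was called without VEH replicate 2, VEH replicate 3 or AI replicate 2. Acad10 did not fall with E2 without AI replicate 1 or 2 or any 1 AI+E2 array, and 2 genes were higher in AI+E2 than in VEH without VEH replicate 3, AI+E2 replicate 1 or AI+E2 replicate 3. The methods' t-test left 2 that fell with AI and 7 that rose with E2, beside 663 and 758 of all 14506 genes called in either direction.

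Acad9, an acyl-CoA dehydrogenase relative that also helps to assemble respiratory complex I, had the widest difference in this list. It measured 9.70, 9.66 and 9.67 in VEH, 8.48, 8.60 and 8.58 in AI and 9.87, 9.69 and 9.89 in AI+E2. It fell by 1.12 from VEH to AI (adjusted p = 6.6e-09) and rose by 1.26 from AI to AI+E2 (adjusted p = 6.84e-09), and AI+E2 and VEH differed by 0.14 (adjusted p = 0.179). Hadh, which oxidises 3-hydroxyacyl-CoA of short and medium chains, measured 9.43, 9.62 and 9.48 in VEH, 8.77, 8.80 and 8.84 in AI and 9.81, 9.68 and 9.74 in AI+E2. It fell by 0.71 (adjusted p = 5.72e-06) and rose by 0.94 (adjusted p = 4.6e-07).

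Decr1, needed for unsaturated chains, fell by 0.35 with AI (adjusted p = 0.00661) and rose by 0.79 with E2 (adjusted p = 7.27e-06), to 0.44 above VEH (adjusted p = 0.00154). Eci1, an isomerase of the same branch, fell by 0.43 and rose by 0.37 (adjusted p = 0.000663 and 0.00305). Both subunits of the electron transfer flavoprotein, which takes electrons from the acyl-CoA dehydrogenases, moved likewise. Etfa fell by 0.44 and rose by 0.54 (adjusted p = 0.0019 and 0.000516), and Etfb fell by 0.37 and rose by 0.30 (adjusted p = 0.000888 and 0.00707). Acadm and Hadha, the members in this list, were not among the genes that fell with AI.

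Of 12 peroxisomal genes measured of the 16 listed, 6 fell and 0 rose from VEH to AI (list median -0.18), beside 11.0% and 5.91% of all genes. Only 4 fell without VEH replicate 1, without AI replicate 3 or after another quantile normalization. From AI to AI+E2 5 rose and 0 fell (list median 0.10), beside 8.65% and 4.13% of all genes. The 5 that rose were Abcd3, Ech1, Hsd17b4, Phyh and Scp2, and Ehhadh, with 0.16, was not among them. Scp2, the sterol carrier protein with a peroxisomal thiolase, fell by 0.34 (adjusted p = 0.00085) and rose by 0.30 (adjusted p = 0.00323). Phyh, which starts the breakdown of phytanic acid, fell by 0.25 (adjusted p = 0.00835) and rose by 0.35 (adjusted p = 0.000889). From D12 to VEH 5 peroxisomal genes rose, beside 6.91% of all genes. The count was 2 without VEH replicate 3 and 3 without D12 replicate 1, D12 replicate 2 or VEH replicate 1. The methods' t-test called 0 of the list lower with AI, and 2 higher (Ech1, Phyh) and 1 lower (Amacr) with E2. In either direction it called 663 and 758 of all 14506 genes in these 2 comparisons.

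**Figure D3:**
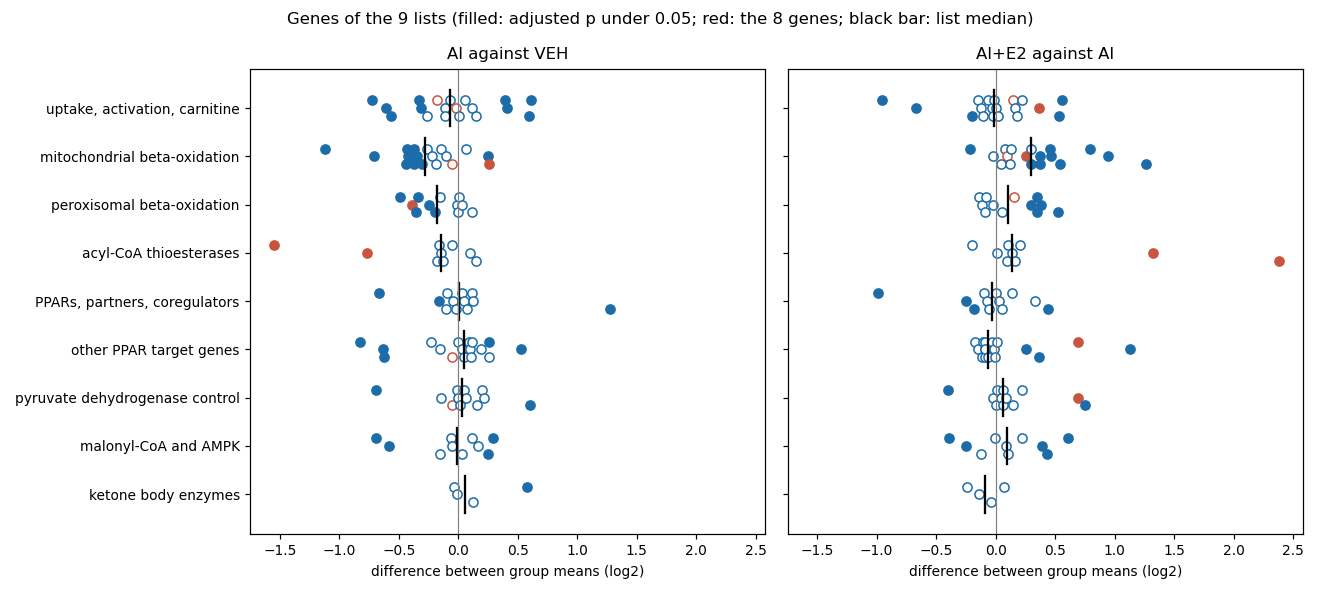
Differences between group means (log2, x axis) of every measured gene of 9 lists (y axis), for AI against VEH and AI+E2 against AI, with filled circles for an adjusted p under 0.05, red for the 8 genes and a black bar at the list median. The mitochondrial list has its median at -0.28 in the left panel and 0.30 in the right, and Acot1 and Acot2 are far from the other thioesterases.

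Uptake, activation and the carnitine shuttle went both ways. Of 19 genes measured of the 20 listed, 4 rose and 5 fell from VEH to AI (3 fell without AI replicate 1), beside 5.91% and 11.0% of all genes. From AI to AI+E2 3 rose and 3 fell, beside 8.65% and 4.13% of all genes. Slc25a20, the carnitine-acylcarnitine translocase between CPT1 and CPT2, fell by 0.60 from VEH to AI (adjusted p = 4.44e-05) and was still 0.38 below VEH in AI+E2 (adjusted p = 0.00353). Crot, the peroxisomal carnitine octanoyltransferase, fell by 0.57 (adjusted p = 5.87e-05), and its difference of 0.17 between AI+E2 and AI had an adjusted p of 0.187. The long-chain acyl-CoA synthetases differed among themselves.

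Acsl5 fell by 0.72 with AI (adjusted p = 1.19e-05) and rose by 0.56 with E2 (adjusted p = 0.000198). Acsl4 rose by 0.61 with AI (adjusted p = 3.48e-05) and was not called between AI+E2 and AI (-0.067, adjusted p = 0.645). Acsl3 fell by 0.96 from AI to AI+E2 (adjusted p = 6.64e-06), to below every other group, with 8.16, 7.96 and 8.32 against 9.12, 9.24 and 8.96 in AI. Fabp3, a carrier of fatty acids in the cytosol, rose by 0.39 with AI (adjusted p = 0.00162) and fell by 0.67 with E2 (adjusted p = 1.73e-05).

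Of the receptors, Ppara measured 7.20, 7.52 and 7.39 in D12, 7.60, 7.06 and 7.52 in VEH, 6.65, 6.71 and 6.81 in AI and 7.23, 7.20 and 7.06 in AI+E2. All AI arrays were below all others. Ppara fell 1.59-fold from VEH to AI (-0.67 ± 0.117, adjusted p = 0.000794) and rose by 0.44 from AI to AI+E2 (adjusted p = 0.0205). The rise was no longer called without AI replicate 1 (adjusted p = 0.0896), AI replicate 2 (0.0519), AI+E2 replicate 1 (0.0883) or AI+E2 replicate 2 (0.0618).

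Ppard, the more widely expressed relative, measured 7.77, 7.87 and 7.79 in VEH, 7.66, 7.67 and 7.61 in AI and 7.48, 7.48 and 7.44 in AI+E2. It was lower in AI+E2 than in VEH by 0.34 (adjusted p = 0.000408). Its smaller steps, -0.16 from VEH to AI (adjusted p = 0.0469) and -0.18 from AI to AI+E2 (adjusted p = 0.0371), were not called without any 1 of the arrays compared, with adjusted p between 0.0556 and 0.17 for the first and between 0.0572 and 0.129 for the second. Pparg, Rxra, Rxrb, Rxrg and Ppargc1b passed the test in none of the 4 comparisons.

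Lpin1, which makes diacylglycerol and acts as a coactivator of PPARα, moved the other way from Ppara. It measured 6.39, 6.25 and 6.35 in VEH, 7.76, 7.80 and 7.25 in AI and 6.54, 6.67 and 6.64 in AI+E2, a rise of 1.27 with AI (adjusted p = 2.08e-06) and a fall of 0.99 with E2 (adjusted p = 3.98e-05). Ppargc1a, the coactivator of mitochondrial biogenesis, had an adjusted p of 0.177 between AI and VEH (0.12) and fell by 0.25 from AI to AI+E2 (adjusted p = 0.00669). Of the 12 genes measured of 14 listed in this group, 1 rose and 2 fell with AI, beside 5.91% and 11.0% of all genes. With E2 1 rose and 3 fell, beside 8.65% and 4.13% of all genes.

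Known PPAR targets outside oxidation did not share 1 pattern. Of 17 measured of 19 listed, 2 rose and 3 fell with AI, beside 5.91% and 11.0% of all genes. With E2 4 rose and 0 fell, beside 8.65% and 4.13% of all genes, and the list medians were 0.051 and -0.069. Only 1 rose with AI without VEH replicate 1, VEH replicate 3 or AI replicate 3, and 2 rose with E2 without AI replicate 1. Angptl4, an inhibitor of lipoprotein lipase, measured 9.02, 9.04 and 8.48 in VEH, 8.11, 8.21 and 8.32 in AI and 9.50, 9.24 and 9.28 in AI+E2. It fell by 0.63 with AI (adjusted p = 0.00501) and rose by 1.13 with E2 (adjusted p = 5.27e-05), the order of groups that Acot1 and Acot2 had on day 16.

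Plin2, the coat protein of lipid droplets, fell by 0.83 with AI (adjusted p = 7.23e-05) and stayed 0.82 below VEH in AI+E2 (adjusted p = 0.000124). These are RNA values, and by oil red O staining the authors saw more lipid droplets in the AI+E2 group. Vnn1, a pantetheinase gene, rose by 0.52 with AI (adjusted p = 2.31e-05) and was 0.44 above VEH in AI+E2 (adjusted p = 0.00021). Ucp2, an inner-membrane carrier, was 0.62 above VEH in AI+E2 (adjusted p = 0.000113). Mgll, the lipase of monoacylglycerol, fell by 0.62 with AI (adjusted p = 6.39e-06).

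**Figure D4:**
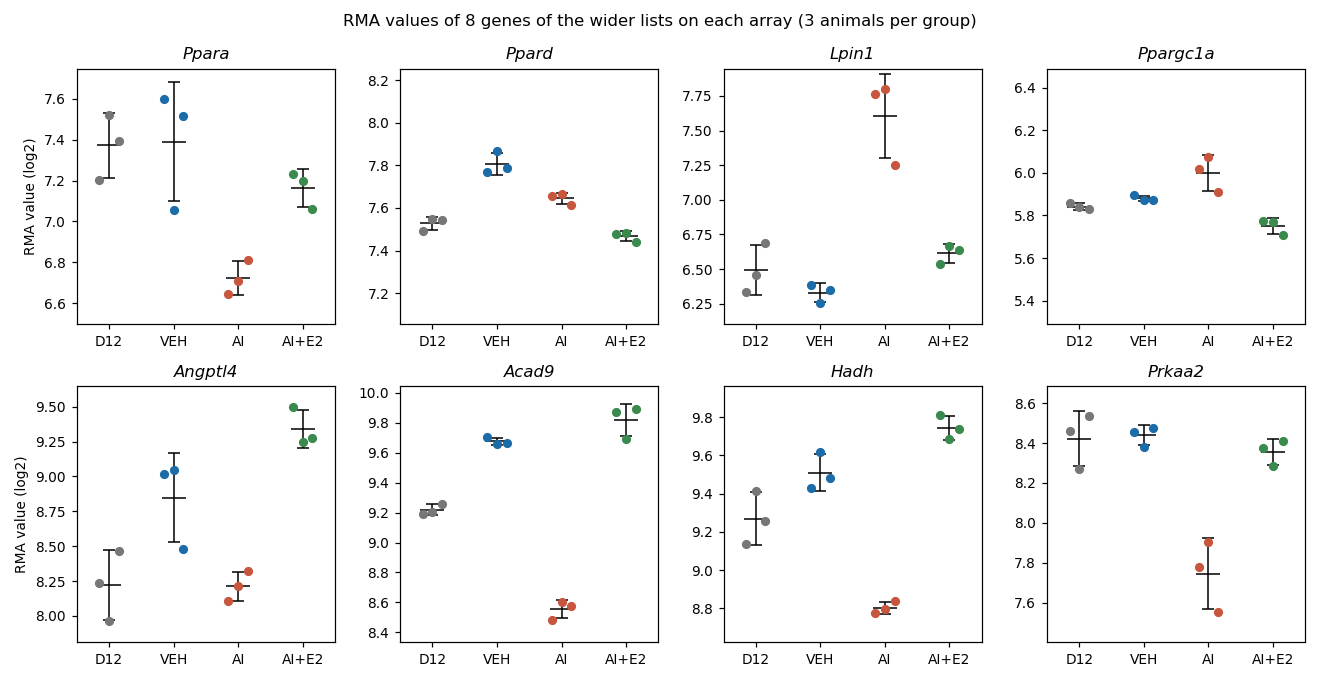
RMA values (log2, y axis, each panel with its own range) of 8 genes of the wider lists in the 4 groups (x axis), with 1 point per animal, the horizontal bar at the group mean and whiskers of 1 SD (n = 3). Acad9, Hadh, Angptl4 and Prkaa2 are lowest in AI among the day 16 groups, and Lpin1 is highest there.

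Around pyruvate dehydrogenase, 1 of 12 measured genes rose and 1 fell with AI, beside 5.91% and 11.0% of all genes. Without VEH replicate 1 2 rose with AI, and 4 after another quantile normalization. With E2 2 rose and 1 fell, beside 8.65% and 4.13% of all genes. Pdk3, another kinase of the complex, fell by 0.69 with AI (adjusted p = 0.000302) and rose by 0.75 with E2 (adjusted p = 0.000203), while Pdk4 was called in AI+E2 against AI and not in AI against VEH. Pdp2, a phosphatase that reverses the kinases, rose by 0.60 with AI (adjusted p = 0.000112) and fell by 0.40 with E2 (adjusted p = 0.00504). Pdk2 was 0.44 higher in AI+E2 than in VEH (adjusted p = 0.00266).

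Malonyl-CoA blocks CPT1, and AMPK relieves that block by inactivating acetyl-CoA carboxylase. Of 10 measured genes of this control, 2 rose and 2 fell with AI, beside 5.91% and 11.0% of all genes. With E2 3 rose and 2 fell, beside 8.65% and 4.13% of all genes. Without any 1 VEH array, AI replicate 1 or AI replicate 2, 1 rose with AI, and without AI replicate 1 none fell with E2, or 1 without AI replicate 2 or AI+E2 replicate 1. Prkaa2, a catalytic subunit of AMPK, measured 8.46, 8.38 and 8.48 in VEH, 7.78, 7.91 and 7.55 in AI and 8.37, 8.28 and 8.41 in AI+E2. It fell by 0.69 with AI (adjusted p = 3.67e-05) and rose by 0.61 with E2 (adjusted p = 0.00018). Prkag2, a regulatory subunit, fell by 0.58 with AI (adjusted p = 0.000417) and was 0.97 below VEH in AI+E2 (adjusted p = 5.08e-06). Both the gene that degrades malonyl-CoA, Mlycd, and a gene of acetyl-CoA carboxylase, Acaca, rose with AI. Mlycd rose by 0.25 (adjusted p = 0.00438) and Acaca by 0.29 (adjusted p = 0.0333), and Acaca was 0.28 above VEH in AI+E2 (adjusted p = 0.0475). Of 4 ketone body genes measured of 6 listed, Bdh1 alone was called between AI and VEH (0.58, adjusted p = 0.000668).

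Over all 9 lists without the 8 members, 12 of 104 measured genes rose and 27 fell from VEH to AI, beside the 5.91% and 11.0% of all genes given above, and 24 rose and 10 fell from AI to AI+E2, beside 8.65% and 4.13%. Markers of other cells moved in the same arrays, and their counts in these comparisons stand beside the same shares of all genes. From VEH to AI 7 of 9 endothelial markers fell and 0 rose, with their mean RMA value between 9.10 and 9.14 in VEH, 8.59 and 8.80 in AI and 8.73 and 8.79 in AI+E2, and 0 of 9 were called between AI+E2 and AI. Of 8 luteal markers 5 rose and 1 fell with AI (mean 10.9 to 11.0 in VEH, 11.2 to 11.4 in AI and 11.2 to 11.3 in AI+E2), and 3 of 8 macrophage markers rose. Of 7 muscle markers 2 fell with AI and 0 were called between AI+E2 and AI. Red blood cell markers were lower in AI+E2: 2 of 4 fell from AI to AI+E2 (list median -0.65) and 3 of 4 were below VEH (list median -0.91), with a mean between 7.40 and 7.48 in AI+E2, 7.98 and 8.25 in AI and 8.11 and 8.48 in VEH. Between AI+E2 and VEH 6.90% of all genes were called lower. From D12 to VEH 8 of 9 endothelial and 4 of 7 muscle markers rose, beside 6.91% of all genes. The part of these markers in the differences above was not tested.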

How the data were processed

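Total RNA from the CL of 12 rats was hybridised to 12 Affymetrix Rat Gene 1.0 ST arrays, 3 per group. The deposited values are log2 RMA values, which the authors normalized with R 2.12.2 (background correction, quantile normalization and summary per probe set). RMA keeps no detection call and makes array distributions alike, so a shift of all genes at once would not be seen. Of 29214 probe sets, 15310 had 1 gene symbol in the platform annotation, 323 had several and 13581 none, which left 14506 genes, with 1 probe set for each (the highest mean). limma 3.58.1 in R 4.3.3 (lmFit, eBayes, no covariates) was fitted over all 12 arrays with 8 residual and 6.66 prior degrees of freedom. Adjusted p is by Benjamini-Hochberg over all 14506 genes. The number of arrays limits the precision.

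The 8 members, the 9 lists and the marker lists were chosen with earlier results of these data known. From each list the text names genes among the 4 with the smallest p in each of AI+E2 against AI and AI against VEH, and the PPAR, RXR and Ppargc1 genes. A count of 5 or fewer may name others (Acad10, Amacr), which were chosen after their values were seen, and for Acot1 and Pdk4 the genes of the highest r are named. The fit was tested on simulated data. Promoters and gene order came from RefSeq tables of GRCr8, searched in Python 3.11.15. Protein sequences were not analysed here. Identical arrays were looked for and 0 pairs were found. The alternatives tried were other probe set rules, filters on dim genes, scalings, fits and each array left out.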

Additional observations from a re-analysis of the deposited data

How the results depend on the processing

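The counts of the 8 genes called stayed within 1.5 times the reported counts under the alternatives run, with the methods' t-test as the exception. That test called 2 of the 8 in AI against VEH, 3 in AI+E2 against AI, 2 in AI+E2 against VEH and 0 in VEH against D12 (3 at its unadjusted threshold), and of the 112 genes measured on the lists 10, 20, 8 and 2, where limma called 43, 39, 27 and 28. Over all 14506 genes the t-test called 663, 758, 564 and 57, and 2247 in VEH against D12 at its unadjusted threshold. In the same order limma called 5.91%, 8.65%, 6.11% and 6.91% of all genes higher and 11.0%, 4.13%, 6.90% and 3.23% lower. The t-test uses 6 arrays at a time without the spread shared over genes. With each array left out in turn, 3 to 4, 4 to 6, 4 to 5 and 3 to 4 of the 8 were called, and 35 to 41, 29 to 39, 18 to 25 and 19 to 25 of the list genes.

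Differences that were not called changed sign in some settings. Hadha in AI against VEH became 0.016 with the mean of all probe sets, 0.022 after another quantile normalization and 0.082 with its other probe set. Cpt2 in AI against VEH became 0.069 after another quantile normalization. With 1 array left out it ranged from -0.12 without AI replicate 2 to 0.031 without VEH replicate 1, Pdk4 in AI against VEH ranged from -0.097 to 0.015, and Cpt1a in VEH against D12 from -0.081 to 0.020. No called difference of the 8 genes or of the named list genes changed sign in the alternatives run, and the cause of these changes was not tested.

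The labels give replicate numbers and name no pairing. Deviations of same-numbered arrays from their group means had correlations from -0.486 to 0.339 over 18 pairs, and those of other numbers from -0.389 to 0.455. With 3 arrays per group these correlations are tied to each other, so they cannot exclude a pairing. With the replicate number as a block, Hadha in AI+E2 against VEH had an adjusted p of 0.0728 and Ehhadh in VEH against D12 one of 0.07, and the block changed no other call of the 8 genes. With 3 arrays per group, small differences such as those of Cpt2 are bounded by their intervals and not shown to be absent. Acot1 in AI and Pdk4 outside AI+E2 lay below the median over all genes.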
